A study of Mus musculus with 13 samples.

Results

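The metallothionein genes Mt1 and Mt2, 2 of the 55353 genes listed in the files, were followed across cell types and diet days of a single-cell RNA-seq atlas of cholestatic mouse liver. They were chosen because Mt2 was among the largest increases in biliary epithelial cells (BEC) under diet, with its family neighbour Mt1 taken along. What BEC show between diet and steady state is therefore the basis of the choice and is given below as a description without a test. Unique molecular identifiers (UMIs, 1 per captured RNA molecule) of both genes were read in 95563 barcodes with at least 1500 UMIs.

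Livers came from male C57BL/6J mice aged 6 to 12 weeks that were fed chow containing DDC (3,5-diethoxycarbonyl-1,4-dihydrocollidine) at 0.1%, an agent that causes porphyrin-plugged bile ducts, for 0, 3, 5, 9, 19 or 25 days (D0 to D25). Each day has 1 library per isolation protocol, and a library is written as its day and protocol, such as D9 A. Protocol A sorted live singlets, retinoid-autofluorescent, Epcam+, Pdpn+, Cd45+, Lyve-1+ and Cd31+ Lyve-1- cells at equal ratios, and protocol B sorted live cells of a stellate cell preparation together with Cd45+ Itgax+ Cd64-, Epcam+ and Cd3e+ Lyve-1- cells. A further protocol B library, STOP, came from 18 days of DDC followed by 7 days of recovery. One label gives day 18 for the library titled D19 B. The labels do not tie mice to libraries, so tests over libraries measure the spread between these libraries, which need not be independent animals.

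Metallothioneins are small cysteine-rich proteins that bind zinc and copper and release them again, and the liver is a main site of their expression. Transcription of Mt1 and Mt2 is driven by the zinc-sensing factor Mtf1, which binds metal response elements in their promoters, and also responds to glucocorticoids, to interleukin-6 through STAT3 and to oxidative stress. The related genes Mt3 and Mt4 are known from brain and from stratified epithelium. In the GENCODE vM21 annotation of GRCm38, Mt2 (ENSMUSG00000031762.7) is at chr8:94172664-94173568 and Mt1 (ENSMUSG00000031765.8) at chr8:94179082-94180327, both on the plus strand, with 3 exons in their first transcript and 5513 bases between them.

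The 250 bases before the RefSeq start of each gene (GRCm38.p6, plus strand) are shown because both genes moved together in BEC. Mt2 is at chr8:94172368-94172617 and Mt1 at chr8:94178839-94179088, and capitals mark the core of the metal response element, TGCACNC or TGCGCNC on either strand.
Mt2: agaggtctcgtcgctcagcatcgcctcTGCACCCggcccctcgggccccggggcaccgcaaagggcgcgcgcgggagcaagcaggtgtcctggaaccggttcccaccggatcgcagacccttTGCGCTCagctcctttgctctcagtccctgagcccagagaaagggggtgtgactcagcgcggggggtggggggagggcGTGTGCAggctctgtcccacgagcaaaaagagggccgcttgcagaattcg
Mt1: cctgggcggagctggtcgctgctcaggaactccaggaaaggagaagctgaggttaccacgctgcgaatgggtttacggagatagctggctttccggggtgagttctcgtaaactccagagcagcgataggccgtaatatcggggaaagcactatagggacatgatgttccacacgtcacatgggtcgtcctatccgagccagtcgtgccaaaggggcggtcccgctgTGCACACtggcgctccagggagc
The Mt2 window held 3 cores, beginning 223, 128 and 50 bases before the start, and the Mt1 window held 1, beginning 23 bases before it. With the first 50 bases after the start included, the numbers were 4 and 3. Annotated transcripts also begin further on, Mt1-203 at chr8:94179211, Mt1-202 at chr8:94179241 and Mt2-202 at chr8:94172860. The bases before those starts lie partly outside these windows. The numbers of cores therefore describe these windows and not the whole promoters, and do not rank the genes. Of 32851 RefSeq promoters, 21.4% held at least 1 of these cores in the 250 bases and 1.26% held 3 or more. The Mt2 window also held 1 antioxidant response element core, TGACNNNGC, beginning 79 bases before the start and apart from the metal cores, and 10.2% of promoters held this core. The STAT element TTCNNNGAA, held by 7.02% of promoters, was in neither window. Such matches describe letters and not binding.

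Reads of both genes could be told apart, as no word of 31 bases of Mt1 transcripts occurs in Mt2 or in any other gene. Of the Mt2 words, 58.1% also occur in another gene, mostly in the antisense gene Gm45774, which covers bases 1 to 355 of the 511 bases of the Mt2 transcript on the opposite strand. The sources used here do not say whether counting used the strand, so the Mt2 level beside the Mt1 level is uncertain, whereas comparisons of Mt2 between cells are made within the same counting.

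Cells were grouped by clustering without Mt1 and Mt2 and named from marker genes, so that each name means cells like that type. The 6 types compared hold 4969 BEC, 24354 liver sinusoidal endothelial cells (LSEC), 1931 hepatocytes, 11141 macrophages, 14971 dendritic cells (DC) and 12248 T cells. All markers of LSEC, hepatocytes, macrophages and T cells were higher in their own type than in the other 5 types, as were 25 of 28 for DC and 11 of 12 for BEC. The same markers named the clusters, so this does not test the names. Markers counted in each cell gave the same type to 43.9% of the hepatocytes and 83.1% of the DC. In the other types this share was 85.0 to 98.9%, though 34952 cells were LSEC by their own markers. Library totals ran from 29307190 to 108602421 UMIs. Pairs of libraries shared at most 0.519% of the cell barcodes of the smaller one. Levels are counts per 1e6 UMIs (CPM) from the summed cells of each type within each library, given where at least 20 cells were present. Just above the threshold of 1500 UMIs, barcodes with 1500 to under 2000 UMIs had a median Mt1 of 496 CPM over the 13 libraries, and those with 1000 to under 1500 UMIs, just below it, had 491 CPM.

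In BEC, which line the bile ducts, Mt1 and Mt2 were higher in every DDC library than at steady state. Mt1 was 432 CPM in D0 A, the only D0 library with enough BEC (779 cells), and 1939 in D3 B, 1364 in D5 B, 5839 in D9 A, 2678 in D9 B, 2294 in D19 A, 2140 in D19 B, 3540 in D25 A and 2211 in D25 B. All 8 DDC libraries lay above D0 A, and D9 A stood highest. Mt2 was 75.8 CPM in D0 A and 392, 310.0, 1200, 617, 545, 467, 617 and 423 CPM in the same 8 libraries in that order. The mean over the DDC libraries was 2751 CPM ± 1395 (SD, n = 8) for Mt1 and 571 CPM ± 276 for Mt2, or 6.37-fold and 7.53-fold the level of D0 A. In an edgeR fit with the protocol as a term, the log2 fold changes were 3.41 (SE 0.62) and 3.61 (SE 0.59), which placed Mt1 at rank 23 and Mt2 at rank 20 among 5086 genes with a mean of at least 32 CPM. Of all 15291 genes tested in this contrast, 2.84% were called, a share that says nothing about these genes because they were chosen on it. D0 A BEC also stood apart in other genes, with 13 hepatocyte markers summing to 6219 CPM against 1233 to 3728 CPM in DDC libraries and 11 immediate early and heat shock genes summing to 27497 CPM against 10177 to 17920 CPM. The part of either in the difference was not tested.

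**Figure D1:**
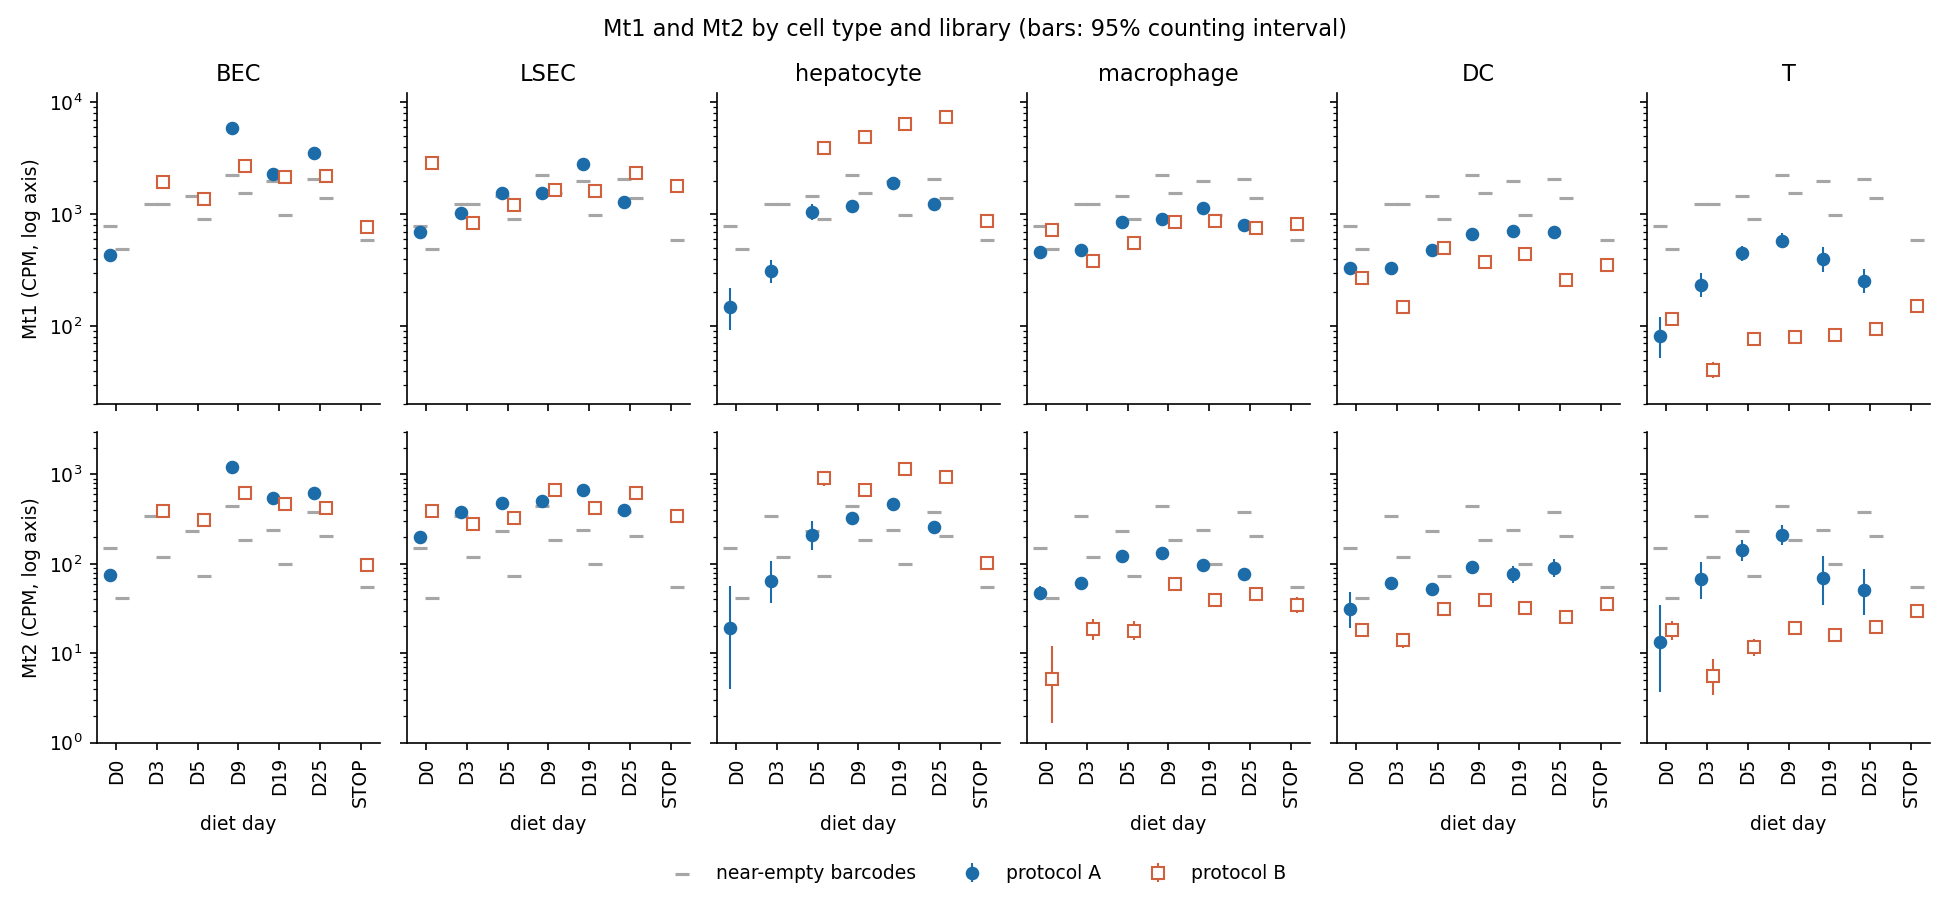
Mt1 (top) and Mt2 (bottom) in CPM on a log axis by diet day, for 6 cell types, with filled circles for protocol A, open squares for protocol B, bars for 95% Poisson counting intervals and grey dashes for near-empty barcodes of the same library. BEC rise from 432 CPM of Mt1 in D0 A to between 1364 and 5839 CPM under DDC, while T cells lie below the grey dashes in every library.

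A larger share of BEC held an Mt1 UMI in D3 B and D25 A than in D0 A. These shares belong to the values the genes were chosen on, and at a fixed depth they rise with the summed level. Large duct cells were 8.34% of BEC in D0 A, 27.4% in D3 B and 42.0% in D25 A, and their part was not tested. With every BEC thinned to 1500 UMIs, 24.0% of D0 A BEC held an Mt1 UMI, against 51.3% in D3 B and 85.7% in D25 A. Before thinning these shares were 64.7%, 87.2% and 98.2%, at median depths of 10051, 19172 and 14261 UMIs per cell. For comparison, T cells, which had the lowest Mt1 levels of the 6 types, held an Mt1 UMI after thinning in 8.43% of 83 D0 A cells and 31.6% of 79 D25 A cells, but in 5.07% of 1616 D0 B cells and 7.45% of 1758 D25 B cells. Both genes tended to be found in the same cells, since after thinning Mt2 was more frequent among BEC with an Mt1 UMI (18.2 to 59.8%) than among those without (1.75 to 18.5%) in 10 of 10 libraries. The tenth of BEC richest in Mt1 held 74.7% of the Mt1 UMIs in D0 A and 37.2 to 60.4% in DDC libraries.

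Large duct BEC were the richer part of the compartment. In D0 A they had 2557 CPM of Mt1 in 65 cells, against 221 CPM in the 714 other BEC, and the highest value of all, 8282 CPM, was that of large duct BEC in D9 A. Mt1 was higher in large duct than in other BEC in 8 of 9 libraries, with a median ratio of 2.66, and the exception was D5 B with 794 against 1467 CPM. For Mt2 this held in 7 of 9 libraries (median ratio 2.17), with D5 B and D19 B as exceptions. The makeup of BEC differed between libraries. Of D0 A BEC, 75.6% lay in a cluster that held 2.30% of the pooled BEC of DDC libraries, though 41.0% of those of D3 B. Large duct cells were 57.4% of D9 A BEC but 8.34% of D0 A BEC. Within the cluster that held most other BEC, Mt1 was 302 CPM in D0 A (116 cells) and 645 to 2204 CPM in the 8 DDC libraries, which is part of the values the genes were chosen on. Mt2 in this cluster was 55.4 CPM in D0 A and 171 to 604 CPM under DDC. In large duct BEC, 2 of 7 DDC libraries lay below D0 A in both genes, D5 B with 794 CPM of Mt1 and 104 of Mt2 and D19 B with 2442 and 464, against 2557 and 487 in D0 A.

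In hepatocytes, the parenchymal cells of the liver, both genes were higher in every DDC library than in D0 A, the 1 D0 library with at least 20 hepatocytes. The 52 hepatocytes of D0 A held 23 Mt1 UMIs (147 CPM) and 3 Mt2 UMIs (19.2 CPM), and the 10 of D0 B, too few to enter a test, held 1 and 0. Under DDC, Mt1 was 308 CPM in D3 A, 1054 in D5 A, 3931 in D5 B, 1195 in D9 A, 4914 in D9 B, 1909 in D19 A, 6443 in D19 B, 1227 in D25 A and 7462 in D25 B. All 9 lay above D0 A, and every protocol B library lay above every protocol A library. The median DDC library of both protocols had 13 times the Mt1 of D0 A (95% counting interval 8.65 to 20.5) and 24.6 times its Mt2 (8.42 to 119). As D0 A is a protocol A library, these ratios mix diet with protocol. The protocol A libraries under DDC had 308 to 1909 CPM of Mt1. No protocol A hepatocyte level of Mt1 exceeded that of barcodes with at most 100 UMIs in the same library. edgeR's quasi-likelihood test gave log2 fold changes of 4.13 (SE 1.05, adjusted p = 0.0296) for Mt2 and 3.28 (SE 0.94, adjusted p = 0.0532) for Mt1, so that Mt2 was called and Mt1 was not, where 4.82% of 7325 genes were called. These tests rest on 1 D0 library, which is assumed to vary like the DDC libraries, and the Mt2 call was lost with the cell types taken from the markers of each cell (log2 fold change 5.48, adjusted p = 0.470), without the protocol term (4.89, adjusted p = 0.686) and with at least 50 cells per library (4.29, adjusted p = 0.0588).

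The hepatocytes formed 2 clusters of unequal quality. One, with 11 of 13 hepatocyte markers detected, held most cells of D19 B, D25 B and STOP, and the other, with 6 of 13 and a median depth 0.420 times that of its libraries, held most cells of the protocol A DDC libraries. In the first, Mt1 was 213 CPM in D0 A and 2350 to 7596 CPM in the 6 DDC libraries with at least 20 such cells. In the second it was 18.9 CPM, from 1 UMI, in D0 A and 273 to 1366 CPM under DDC. Mt1 was thus above its D0 A level in all DDC libraries of each cluster, and the better marked cluster had the higher level in each of the 6 libraries where both had at least 20 cells. The D0 A value of the first cluster came from 29 cells with 22 Mt1 UMIs and 1 Mt2 UMI, so that its fold is not given. Hepatocyte markers summed to 18741 CPM in D0 A, 1819 to 5050 CPM in the protocol A and 5457 to 15057 CPM in the protocol B libraries under DDC, and the part of this in the result was not tested.

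**Figure D2:**
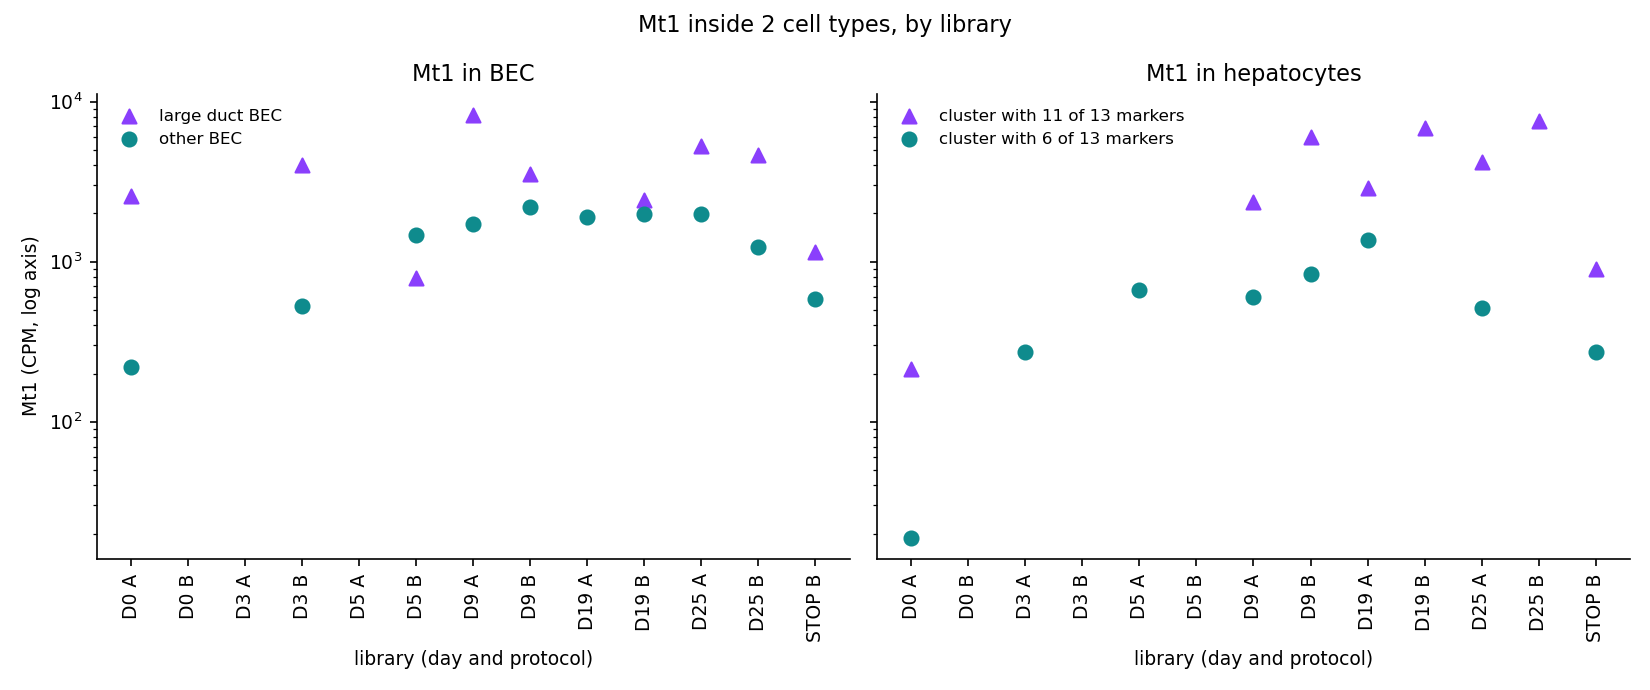
Mt1 in CPM on a log axis by library for large duct and other BEC (left) and for the 2 hepatocyte clusters (right), at least 20 cells per point. Large duct BEC lie above other BEC except in D5 B, and hepatocytes with 11 of 13 markers lie above those with 6 of 13 wherever both are shown.

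LSEC, the fenestrated endothelium of the sinusoids, had high Mt1 and Mt2 with and without DDC. Mt1 was 698 CPM in D0 A but 2886 CPM in D0 B, the lowest and the highest of all 13 libraries, and 841 to 2801 CPM (median 1552) in the 10 DDC libraries, all of which lay between both D0 libraries. Mt2 was 198 and 389 CPM at D0 and 278 to 675 CPM (median 451) under DDC, with 7 of 10 DDC libraries above both. Neither gene was called in edgeR (Mt1 log2 fold change -0.09, SE 0.48, adjusted p = 0.975, and Mt2 0.77, SE 0.37, adjusted p = 0.467), where 0.0466% of genes were called. The Mt1 estimate was 1.48 with protocol A alone (adjusted p = 0.225), 1.49 when D0 B was left out and -0.98 when D0 A was left out, so that its direction turned on which D0 library was used. The D0 libraries also differed in makeup, with 78.2% of D0 A LSEC in a cluster that held 1.60% of LSEC under DDC and 71.6% of D0 B LSEC in another that held 21.4%. Hepatocyte markers summed to 959.7 CPM in D0 A LSEC, 88.4 CPM in D0 B and 168 to 427 CPM under DDC, and the part of this was not tested.

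Macrophages, which include the resident Kupffer cells, had D0 levels of both genes that overlapped those under DDC when all clusters were summed. Mt1 was 460.1 and 728 CPM in D0 A and D0 B and 381 to 1128 CPM (median 826) in DDC libraries, with 7 of 10 above both D0 libraries. Mt2 was 47.7 and 5.16 CPM (5 UMIs) at D0 and 17.9 to 132 CPM (median 60.3) under DDC, with 6 of 10 above both. The edgeR estimate for Mt2 was 1.61 on the log2 scale (SE 0.47, adjusted p = 0.0618) and that for Mt1 was 0.31 (SE 0.37, adjusted p = 0.685), where 5.16% of genes were called. The sign for Mt1 turned on the D0 library, with -0.24 when D0 A was left out, 1.13 when D0 B was, and -0.32 with protocol B alone. Mt2 passed with DESeq2 (1.66, adjusted p = 0.00616) and with no filter on low counts (1.65, adjusted p = 0.00955), so that its call turned on these choices. The makeup of the type differed, as 74.3% of D0 A macrophages were Kupffer cells, 64.7% of D0 B macrophages lay in a cluster that held 0.304% of those under DDC, and 46.7% under DDC were in the Gpnmb cluster. In Kupffer cells alone, Mt1 was 288 CPM in D0 A, 316 CPM in D0 B (24 cells, 33 UMIs) and 417 to 956 CPM in the 10 DDC libraries. These did not overlap, but the share of all genes that separate this way was not counted. Barcodes with at most 100 UMIs separated alike, with at most 781 CPM of Mt1 at D0 and at least 913 CPM under DDC. Kupffer cell Mt2 did overlap, at 21.5 CPM in D0 A and 0 in D0 B against 7.52 to 158 CPM under DDC. In Gpnmb macrophages Mt1 was 746 and 888 CPM against 364 to 1070 CPM, and in other macrophages 1059 and 734 CPM against 425 to 1907 CPM, both with overlap, and these parts were not tested.

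DC and T cells had the lowest median levels of Mt1 of the 6 types, whereas for Mt2 their order with macrophages varied by library. In DC, which present antigen to T cells, Mt1 was 329 and 269 CPM at D0 and 149 to 706 CPM (median 464) under DDC, and Mt2 was 31.4 and 18.3 CPM against 13.9 to 92.0 CPM (median 45.6). The edgeR log2 fold changes were 0.35 (SE 0.39, adjusted p = 0.643) for Mt1 and 0.61 (SE 0.36, adjusted p = 0.347) for Mt2, where 3.23% of genes were called. In T cells, Mt1 was 81.1 and 115 CPM at D0 and 40.6 to 580.0 CPM (median 165) under DDC, and Mt2 was 13.5 and 18 CPM against 5.63 to 211 CPM (median 35.3). Under DDC, the cluster with 50.7% called doublets held 2.73% of T cells at 915 CPM of Mt1, and the 6 largest T cell clusters were at 28.7 to 74.3 CPM. Neither gene was called (Mt1 0.15, SE 0.47, adjusted p = 0.916, and Mt2 0.41, SE 0.55, adjusted p = 0.767), where 0.189% of genes were called. In both types the D0 libraries lay within the range of the DDC libraries. Leaving out D0 B gave a T cell estimate of 2.44 for Mt1 and leaving out D0 A gave -0.81, and that of DC was -0.03 with protocol B alone, so that these directions rested on single D0 libraries.

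Of the 10 estimates outside BEC, 9 were above 0 and 1, hepatocyte Mt2, was called, a call lost in 3 alternatives. The count above 0 leaned on D0 A, as 5 of the 8 estimates that protocol B alone allowed were below 0, Mt1 of LSEC, macrophages, DC and T cells and Mt2 of T cells. Whether the change under DDC differed between types was tested by exact permutation of D0 and DDC labels within protocol, for 10 pairs of types and both genes. None of 20 differences passed (smallest adjusted p = 0.417), and the smallest p that the labels allow was 0.0278, or 0.167 for pairs with hepatocytes. The largest differences were those of hepatocytes against macrophages, 2.5 for Mt2 on the log2 scale, and of hepatocytes against DC, 2.28, both at p = 0.167 (exact). A difference between types was therefore not detectable in this design, which does not show that the types responded alike.

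**Figure D3:**
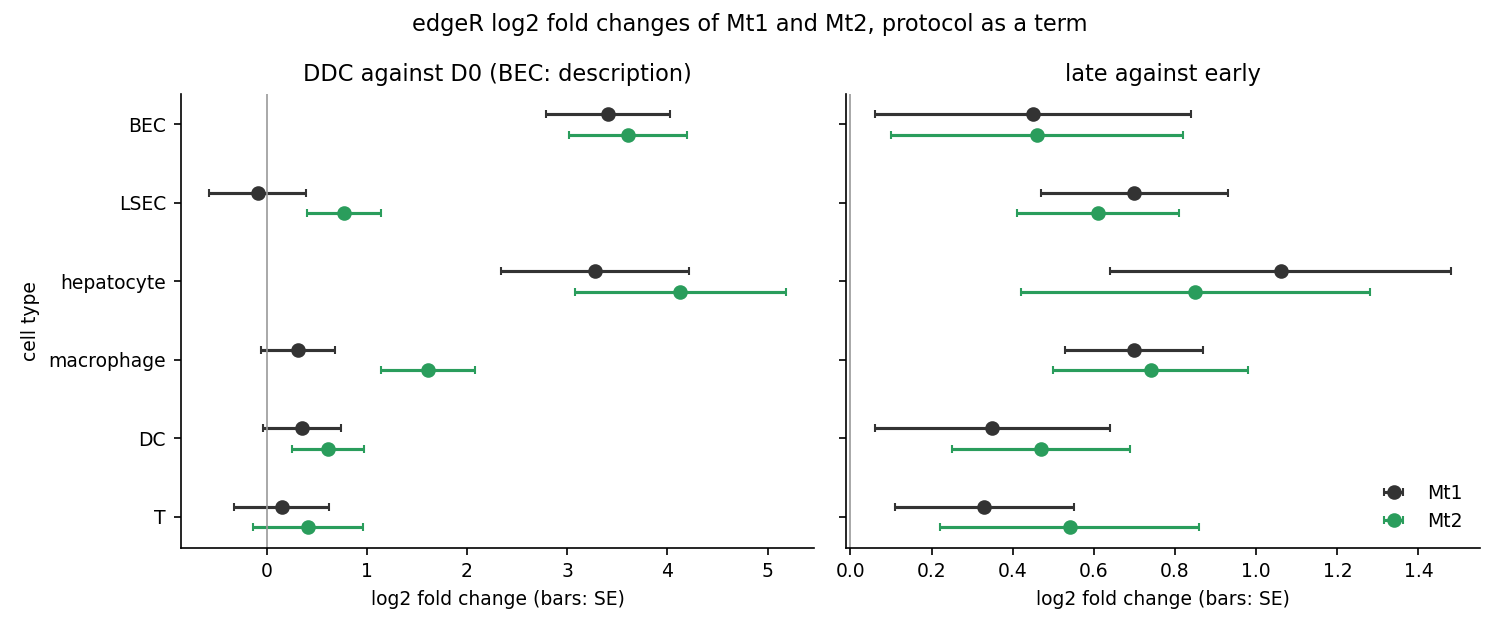
edgeR log2 fold changes of Mt1 (dark) and Mt2 (green) with SE bars by cell type, for DDC against D0 (left, BEC as a description) and late against early diet days (right). Hepatocytes and BEC have the estimates farthest from 0 on the left, from 3.28 to 4.13, and all 12 estimates on the right lie above 0.

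Within the diet, late libraries (D9, D19 and D25) were set against early ones (D3 and D5). The genes were not chosen on this contrast, but its BEC libraries are those whose levels under DDC led to the choice. The BEC values below are therefore a description, and their adjusted p values are not read as a test. All 12 estimates were above 0, from 0.33 to 1.06 on the log2 scale, and none passed the adjusted threshold in edgeR, with 5 of 12 under 0.05 unadjusted, both genes in LSEC and macrophages and Mt1 in hepatocytes. Of all genes, 1129 of 12271 were under 0.05 unadjusted in LSEC, 1728 of 11682 in macrophages and 308 of 5871 in hepatocytes. In BEC, Mt1 was 1364 and 1939 CPM early and 2140 to 5839 CPM late, and Mt2 was 310.0 and 392 CPM early and 423 to 1200 CPM late, so that the groups did not overlap in either gene. The share of all genes that separate early and late libraries this way was not counted. Early and late overlapped within the parts of BEC, whose shares differed by library. Mt1 of other BEC was 1467 CPM in D5 B against 1232 in D25 B, and that of large duct BEC 3986 CPM in D3 B against 2442 in D19 B. The BEC estimates were 0.45 (SE 0.39, adjusted p = 0.969) and 0.46 (SE 0.36, adjusted p = 0.961), where edgeR called 0% of 13609 genes, 654 were under 0.05 unadjusted and DESeq2 called 12. Macrophage Mt1 came nearest to a call, with 381 to 847 CPM early and 753 to 1128 CPM late (0.70, SE 0.17, adjusted p = 0.108, with 0.180% of genes called), and it passed with DESeq2 (0.69, adjusted p = 0.00582) and with no filter on low counts (0.73, adjusted p = 0.00347). LSEC Mt1 was 841 to 1558 CPM early and 1274 to 2801 CPM late (0.70, SE 0.23, adjusted p = 0.394, with 0.0244% called), and hepatocyte Mt1 was 308 to 3931 CPM early and 1195 to 7462 CPM late (1.06, SE 0.42, adjusted p = 0.897, with 0.102% called). In DC and T cells edgeR called 0% of genes (1091 and 689 under 0.05 unadjusted, 39 and 29 by DESeq2), and Mt1 moved by 0.35 (SE 0.29) and 0.33 (SE 0.22).

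Ordered by their median over libraries, Mt1 was 2176 CPM in BEC, 1558 in LSEC, 1227 in hepatocytes, 805 in macrophages, 371 in DC and 115 in T cells. Types were compared within the same library by an exact sign-flip test with adjustment over 30 tests, the pairs with BEC included. Of the 20 tests without BEC, 14 passed, 8 of 10 for Mt1 and 6 of 10 for Mt2. With types from the markers of each cell 3 of these were lost, hepatocytes minus DC for Mt1 (adjusted p = 0.269) and Mt2 (0.0893) and hepatocytes minus macrophages for Mt2 (0.176). For Mt1, LSEC were above macrophages in 13 of 13 libraries by 1.09 ± 0.39 (SD) on the log2 scale, macrophages above DC in 13 of 13 by 0.85 ± 0.47 and DC above T cells in 13 of 13 by 1.39 ± 0.83, each with an adjusted p = 0.000814. LSEC and hepatocytes did not differ beyond their spread (-0.04 ± 1.49, exact adjusted p = 0.941), nor did hepatocytes and macrophages (1.04 ± 1.61, exact adjusted p = 0.0921). BEC lay above LSEC in 6 of 10 libraries by 0.36 ± 0.99 and above macrophages in 8 of 10 by 1.38 ± 0.93, given without p because the genes were chosen on BEC.

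For Mt2 the order was BEC (median 445 CPM), LSEC (396), hepatocytes (326), macrophages (47.7), DC (35.8) and T cells (19.9). LSEC exceeded macrophages by 3.18 ± 1.13 on the log2 scale in 13 of 13 libraries (exact adjusted p = 0.000814) for Mt2. The last 3 types did not differ beyond their spread with types from clusters, whereas all 3 pairs passed with types from the markers of each cell (smallest difference 0.54, exact adjusted p = 0.0315). With clusters, macrophages were above DC in 8 of 13 libraries (0.16 ± 0.74, exact adjusted p = 0.517) and DC above T cells in 10 of 13 (0.34 ± 0.88, exact adjusted p = 0.245). Part of the Mt2 UMIs of macrophages, DC and T cells lay in clusters rich in called doublets, with values given below. Within the same libraries, BEC were above LSEC for Mt2 in 4 of 10 (-0.17 ± 0.92), so that the medians of these types, taken over different libraries, do not order them.

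Mt2 as a share of the UMIs of both genes differed between types. It had a median of 22.1% in LSEC (11.9 to 28.9% over 13 libraries), 16.9% in BEC (11.2 to 19.2% over 10), 16.8% in hepatocytes (10.5 to 21.4% over 11), 16.3% in T cells (12.2 to 26.7%), 9.28% in DC (5.87 to 15.7%) and 6.51% in macrophages (0.704 to 12.8%). Some of these UMIs lay in clusters rich in called doublets. In T cells, 1 with 50.7% called doublets held 54 of 73 Mt2 UMIs in D0 B, 121 of 175 in D19 B and 261 of 343 in STOP. In DC, those with 61.6 and 28.3% held 1735 and 685 Mt2 UMIs under DDC, and the largest cluster held 1106. At D0 these were 13, 16 and 179. By exact sign-flip tests of the logit of the share within libraries, 9 of the 10 pairs without BEC passed, with adjustment over 15 pairs, those with BEC included. LSEC exceeded macrophages and DC in 13 of 13 libraries (adjusted p = 0.000916 each). Given without p, BEC were below LSEC in 10 of 10 libraries and above hepatocytes in 5 of 9 (0.09 ± 0.26 on the logit scale). Macrophages were below DC in 10 of 13 libraries by 0.48 ± 0.60 (exact adjusted p = 0.00533), and this pair no longer passed with cell types taken from the markers of each cell (adjusted p = 0.148), nor did LSEC against hepatocytes (adjusted p = 0.0537). LSEC against T cells, 0.27 on the logit scale, was -1.39 with 10% free RNA subtracted (adjusted p = 0.00817), a call in the other direction. That subtraction was cut off at 0, and T cell Mt1 was at a median of 0.123 times the near-empty level (lowest 0.0331). The reversed value thus rests on T cell counts at or near 0 and is not read as a difference in share.

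**Figure D4:**
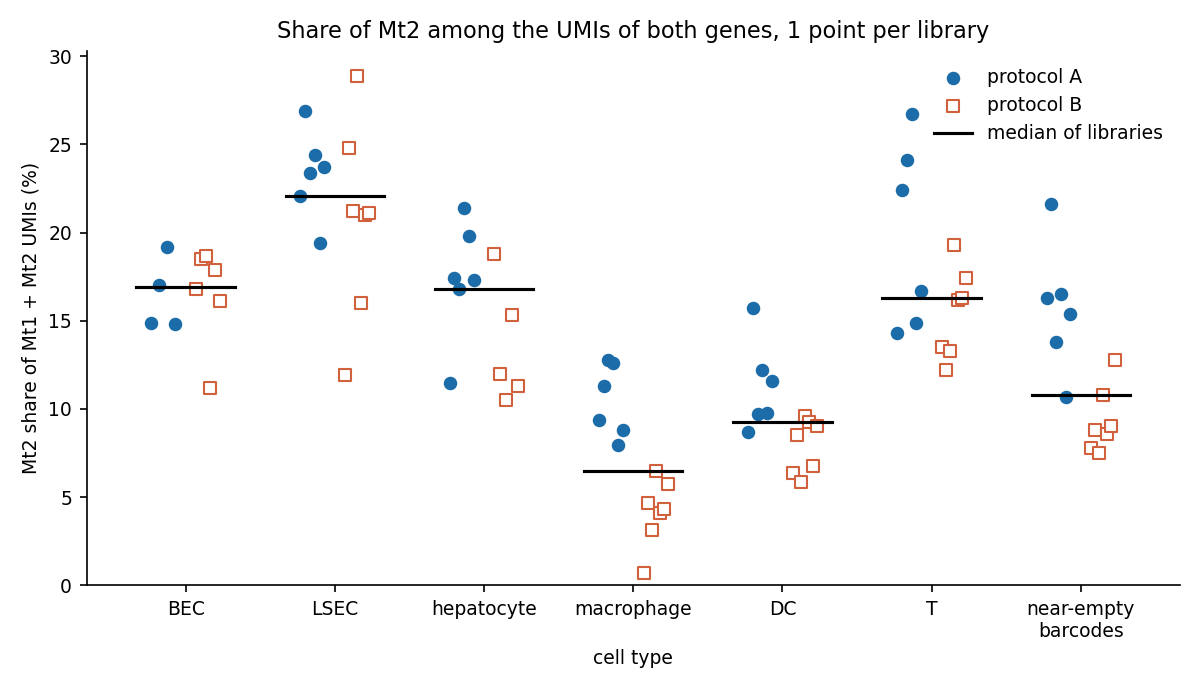
Mt2 as a percentage of the Mt1 and Mt2 UMIs, 1 point per library (filled circles protocol A, open squares protocol B) with the median as a line, for 6 cell types and near-empty barcodes. LSEC have the highest median, 22.1%, and macrophages the lowest, 6.51%.

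Barcodes with at most 100 UMIs, which hold mostly free RNA, contained both genes at 488 to 2240 CPM of Mt1 and 41.2 to 443 CPM of Mt2. All 10 DDC libraries, at 913 to 2240 CPM of Mt1, lay above D0 A (781) and D0 B (488). T cells were below the near-empty barcodes of their own library in 13 of 13 libraries, at a median of 0.123 times their Mt1, as were DC at 0.335 times. Macrophages exceeded them in 0 of 13 libraries for Mt2, at a median of 0.298 times, and in 2 of 13 for Mt1, and hepatocytes in 5 of 11 for Mt1 and 6 of 11 for Mt2. Levels in T cells, DC and macrophages, and in hepatocytes of the other libraries, are therefore read as possibly including background. BEC exceeded the near-empty barcodes in 9 of 10 libraries for both genes, D0 A being the exception at 0.552 times for Mt1 and 0.498 times for Mt2. LSEC exceeded them in 13 of 13 for Mt2 and in 8 of 13 for Mt1. The BEC levels of D0 A, and LSEC Mt1 in the remaining libraries, D0 A among them, are likewise read as possibly including background. With 10% of each sum taken as free RNA and subtracted, the BEC estimates were 3.66 for Mt1 and 3.91 for Mt2, whereas the T cell estimate of Mt1 went from 0.15 to -6.38. Subtraction was cut off at 0, and T cell Mt1 was as low as 0.0331 times the near-empty level. This T cell estimate therefore rests on counts at or near 0.

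Protocols A and B were compared within diet days. Hepatocyte Mt1 was lower in A on 4 of 4 days, by 1.75 to 2.60 on the log2 scale, and Mt2 by 1.04 to 2.10, with means of -2.07 and -1.58. BEC went the other way, with Mt1 higher in A on 3 of 3 days by 0.63 ± 0.51 and Mt2 by 0.58 ± 0.37. No test was run on so few days. For macrophages and DC, Mt2 was higher in A on 6 of 6 days by 1.75 ± 0.90 and 1.29 ± 0.55, with an exact p = 0.0312 each, the smallest that 6 days can give, and an adjusted p = 0.100. In T cells Mt1 was higher in A on 5 of 6 days by 1.84 ± 1.24 (exact p = 0.0625, adjusted p = 0.100), and LSEC were evenly split with 3 of 6. None of the 8 tested differences passed, and 2 were under 0.05 unadjusted. Sort, kit and cell numbers all differ between protocols and cannot be told apart.

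**Figure D5:**
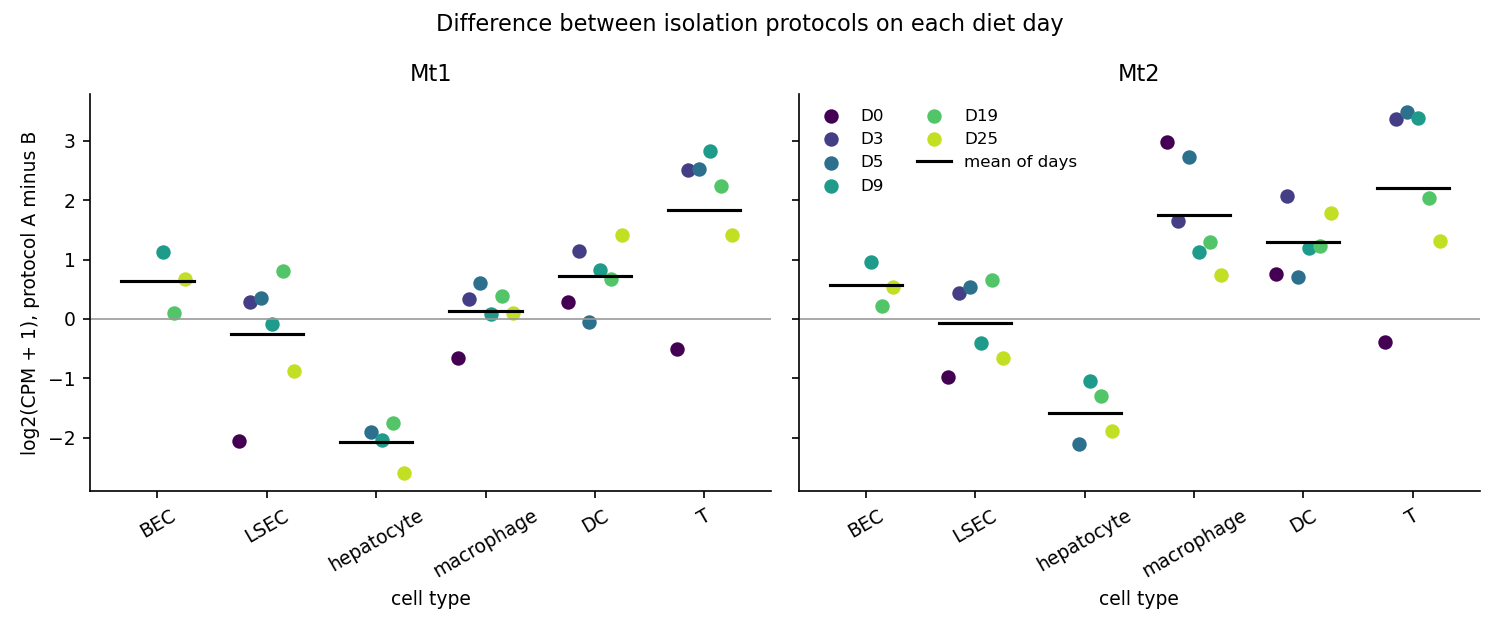
Difference of log2(CPM + 1) between protocols A and B on each diet day (colours) by cell type, for Mt1 (left) and Mt2 (right), with the mean as a line. Hepatocytes lie below 0 on all 4 days for both genes, and macrophages and DC lie above 0 on all 6 days for Mt2.

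After 18 days of DDC and 7 days of recovery, Mt1 and Mt2 were lower in BEC and hepatocytes than in D19 B, with 1 library on each side and counting intervals only. BEC had 765 CPM of Mt1 in STOP (410 cells) and 2140 in D19 B (462 cells), a ratio of 0.357 (95% counting interval 0.346 to 0.369), and 96.2 against 467 CPM of Mt2, a ratio of 0.206 (0.189 to 0.225). Within the same cluster of other BEC, Mt1 was 601 CPM in STOP and 2020 CPM in D19 B. Hepatocytes had 875 CPM in STOP (497 cells) and 6443 in D19 B (33 cells), ratios of 0.136 (0.128 to 0.144) for Mt1 and 0.0881 (0.0751 to 0.104) for Mt2. Against D0 A, a protocol A library, STOP had less Mt1 in large duct BEC (1147 against 2557 CPM) and more in other BEC (586 against 221 CPM). The other types gave ratios nearer 1 for Mt1, with 1.13 in LSEC, 0.940 in macrophages and 0.787 in DC, and 1.84 in T cells, at 152 against 82.8 CPM. Of the T cell Mt1 UMIs, 1322 of 1771 in STOP and 518 of 899 in D19 B came from 1 cluster in which 50.7% of cells were called doublets, and its own level was 917 against 969 CPM. Near-empty barcodes had 592 CPM in STOP and 994 CPM in D19 B.

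Macrophages and DC were also divided by cluster. Macrophages in clusters named neither Kupffer nor Gpnmb had a median of 181 CPM of Mt2 over 13 libraries, Kupffer cells 50.9 and Gpnmb macrophages 15.6. The first exceeded each of the other two in 13 of 13 libraries, and it includes a cluster with 49.4% called doublets, at 244 CPM under DDC, and 1 of low depth whose leading gene is Gpnmb. For Mt1 the medians were closer, at 1024, 634 and 826 CPM. Among DC, cDC2 had a median of 591 CPM of Mt1, cDC1 330.3, mature DC 265 and pDC 114, with cDC2 above cDC1 in 13 of 13 libraries. Each of cDC1, cDC2 and pDC pools clusters of unlike level. The cDC1 clusters had 280.2, 157 and 138 CPM of Mt1 under DDC and, in 1 with 28.3% called doublets, 622. The main pDC cluster had 43.0 CPM under DDC and the other, with 62.8% called doublets, 534, while the cDC2 clusters had 564, 89.5 and, in 1 with 61.6% called doublets, 778. These groups were defined by clustering without Mt1 and Mt2.

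Few genes that act on or beside the metallothioneins were called. Mt4 had no UMI in 5 of the 6 types, and Mt3 stayed at or below 6.76 CPM. Mtf1, the zinc sensor, was at 29.3 CPM in BEC of D0 A and 21.5 to 30.6 CPM in DDC libraries, and the zinc exporter Slc30a1, itself an Mtf1 target, at 28.1 and 15.8 to 33.7 CPM, so that the DDC libraries of both genes ranged around D0 A. The zinc importer Slc39a14 was at 46.1 CPM in D0 A BEC and 28.3 to 38.6 CPM under DDC. In the 5 other types, none of Mtf1, Slc30a1, Slc39a14 and the glucocorticoid receptor Nr3c1 was called for DDC against D0 where tested. Calls appeared for macrophage Slc30a1 with protocol B alone (1.63, adjusted p = 0.0263) and without D0 A (1.70, adjusted p = 0.0346), for DC Mtf1 without D0 A (-0.89, adjusted p = 0.0440) and for T cell Slc39a14 with protocol B alone (1.72, adjusted p = 0.0228). Nor was any of them called in 22 tests of late against early (edgeR log2 fold changes -0.58 to 0.84, lowest adjusted p = 0.475), although 1 passed with no filter on low counts (adjusted p = 0.0427).

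By list, no gene of Mtf1 and the zinc exporters was called in LSEC, hepatocytes, macrophages, DC or T cells, and no copper-handling gene, which at 5 to 10 genes tested and 0.0466 to 5.16% of all genes called says little. Among the zinc importers, Slc39a8 rose in DC (log2 fold change 1.40, SE 0.27, adjusted p = 0.0136) as the only call, 1 of 11 genes tested there beside 3.23% of all genes, which was lost in 5 alternatives, with an estimate of 0.14 (adjusted p = 0.941) with types from the markers of each cell. Among glucocorticoid targets, the leucine zipper gene Tsc22d3 fell in macrophages (-1.17, SE 0.23, adjusted p = 0.0132), 1 of 2 calls among 12 genes there, both lower, where 5.16% of all genes were called, and Errfi1, a feedback inhibitor of the EGF receptor, fell in hepatocytes (-2.81, SE 0.53, adjusted p = 0.00520), 1 call among 11 genes where 4.82% of all genes were called. The first call held in 19 of 22 alternatives and was lost without either D0 library, and the second held in 15 of 18. Il6st, the signalling subunit of the interleukin-6 receptor, rose in DC (1.60, SE 0.28, adjusted p = 0.0105) and macrophages (1.16, SE 0.31, adjusted p = 0.0465), the only calls of the interleukin-6 list, 1 of 11 genes tested in each beside 3.23 and 5.16% of all genes. The macrophage call held in 8 of 22 alternatives (adjusted p = 0.272 with doublets removed) and the DC call in 17 of 22. Of the NRF2 targets, 2 of 10 rose in macrophages, led by Srxn1, which repairs peroxiredoxins (1.29, SE 0.26, adjusted p = 0.0126), with a list median of 0.97 beside 0.06 for all genes and 5.16% of all genes called. The Srxn1 call held in 19 of 22 alternatives and was lost with either protocol alone and without D0 A (adjusted p = 0.115). In BEC, given without a test, 8 of 10 NRF2 targets had estimates above 0 with a median of 0.86 beside 0.04 for all genes. The interleukin-6 list had 7 of 12 above 0 (median 0.46), copper handling 6 of 10 (0.40), glucocorticoid targets 5 of 12 (-0.29), zinc importers 4 of 11 (-0.15), and Mtf1 and the zinc exporters 1 of 7 (-0.08).

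Immediate early and heat shock genes, which cell isolation is known to induce, had calls in 1 direction. Of 11 genes, 6 fell in macrophages, 2 in hepatocytes and 1 in DC, and none rose, where 5.16%, 4.82% and 3.23% of all genes were called. None was called in LSEC or T cells, where 0.0466% and 0.189% of all genes were. The heat shock genes Hspa1b in hepatocytes (-3.06, SE 0.81, adjusted p = 0.0374), Hspa1a in macrophages (-2.96, SE 0.77, adjusted p = 0.0415) and Dnajb1 in DC (-2.03, SE 0.41, adjusted p = 0.0164) led these. Their calls held in 11 of 18, 9 of 22 and 17 of 22 alternatives, the first 2 were lost with DESeq2, and Dnajb1 was -1.01 (adjusted p = 0.452) when D0 B was left out. Their summed level was 11571 and 20301 CPM in D0 LSEC against 4232 to 13169 CPM under DDC, and 12755 and 14705 CPM against 4587 to 7464 CPM in macrophages. Whether this bears on the D0 levels of Mt1 and Mt2 was not tested.

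Over 73 sums of a type in a library, with the mean of each type subtracted, Mt1 and Mt2 had a Pearson's r of 0.88 with each other. The genes most alike, by the mean of r with both among 3216 genes, were the actin-binding Tpm1 (0.68), the glutathione transferase Gstm3 (0.67), the pentose phosphate enzyme Pgd (0.65), the protease inhibitor Serpinb6a (0.63) and the biliverdin reductase Blvrb (0.63). In BEC alone, over 9 sums from D0 to D25, Mt1 and Mt2 had an r of 0.99, and among 3359 genes Lad1 (0.96), the tight junction gene Cldn2 (0.94), Serpinb1a (0.94), the glutathione transferase Gsta4 (0.92) and the mitochondrial gene Immt (0.92) were most alike. Cldn2 was at 107 CPM in D0 A BEC and 187 to 485 CPM under DDC. Sums of a library share its depth and preparation, and these values describe these libraries only.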

How the data were processed

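Single-cell RNA-seq libraries (10x 3′ v3.1, polyA RNA) were made from 13 liver preparations. Values deposited by the authors are UMI counts that were not normalized, for every barcode, made with kallisto against GRCm38 per the submitters' processing notes. The kallisto version, the annotation and the use of strand are not given in the sources used here. Library totals and 95% Poisson or binomial intervals cover counting error only.

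Barcodes with at least 1500 UMIs were taken as cells. They were clustered with scanpy 1.11.5 (2000 variable genes without Mt1 and Mt2, 40 components, 25 neighbours, resolution 1.5) into 65 clusters. A cluster was named where at least 3 markers of a type were detected, unless markers of another type were prominent. Unnamed and in no type were 12 clusters with 10567 cells (11.1%). They include a cluster of 930 cells with 11 of 12 BEC markers and one of 2990 cells with 8 of 11 LSEC markers. Doublets called by Scrublet (2.88 to 24.9% per library) were kept, and removed as an alternative. Outside D3 B, D5 B and D25 A its own threshold marked almost no cells. There the cells with the highest scores were called at its expected rate instead (6.04 to 6.57% per library). Counts were summed per library and type over at least 20 cells and tested with edgeR 4.0.16 (quasi-likelihood, TMM, filterByExpr, a protocol term, Benjamini-Hochberg adjustment over all genes), where early means D3 and D5 and late means D9, D19 and D25. DESeq2 1.42.0 was an alternative. Values of single genes between types, protocols and diets were compared by two-sided exact permutation or sign-flip tests over libraries on log2(CPM + 1). Scripts were tested on simulated data. Named list genes were Mtf1, Slc30a1, Slc39a14 and Nr3c1. Of the called genes of each list and comparison, those with the largest positive and the largest negative log2 fold change were named too. The members and lists were chosen with earlier results of these data known.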

Additional observations from a re-analysis of the deposited data

Results flagged for a closer look

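D9 A stood far from the other libraries in 4 of 48 groups examined. The groups share libraries and UMIs, so that these flags are not separate tests and no rate by chance is set beside them. Its BEC had 1200 CPM of Mt2, against 617 CPM in the next of the 8 DDC libraries and of the 6 late libraries alike. Its T cells had 211 CPM of Mt2, against 69.2 CPM in the next late library, and an Mt2 share of 26.7% against 19.3%. D9 A was also the library in which 57.4% of BEC were large duct cells and in which near-empty barcodes had the most Mt1, 2240 CPM, and the part of either was not tested.

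The difference between protocols A and B was below 0 in hepatocytes on all 4 days, and above 0 on every day in BEC for both genes and in macrophages and DC for Mt2. This contrast between types was not tested, nor was the part of the unlike mix of hepatocyte clusters in A and B. For Mt1 the means on the log2 scale were -2.07 in hepatocytes and 0.63 in BEC. For Mt2 they were -1.58 in hepatocytes, 0.58 in BEC, 1.75 in macrophages and 1.29 in DC.

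Outside the 6 types, mesothelial cells had 892 to 1883 CPM of Mt1 in 5 DDC libraries against 472 CPM in D0 A. Vascular endothelial cells had 352 to 949 CPM of Mt1 in 9 DDC libraries against 194 CPM in D0 A, and 44.3 to 148 CPM of Mt2 against 40.8 CPM. For Mt1 neither type exceeded the near-empty barcodes of its own library (0 of 6 and 0 of 11). Near-empty barcodes had 913 to 2240 CPM of Mt1 in 10 DDC libraries against 488 and 781 CPM at D0.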

How the results depend on the processing

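Of 1532 values recomputed for 141 results, 1342 kept their direction and side of the threshold, 87 changed direction, 67 lost and 22 gained significance and 14 values without a test moved, 13 of them STOP ratios. The causes were not tested. BEC log2 fold changes for DDC stayed between 2.87 and 3.71 for Mt1. Unless named otherwise, values are log2 fold changes of DDC against D0 with edgeR adjusted p in parentheses.

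With DESeq2, hepatocyte Mt1 (3.18, 0.000648), macrophage Mt2 (1.66, 0.00616) and late macrophage Mt1 (0.69, 0.00582) passed. With no filter on low counts, hepatocyte Mt1 (3.40, 0.0392), macrophage Mt2 (1.65, 0.00955), late LSEC Mt1 (0.71, 0.0197) and late macrophage Mt1 (0.73, 0.00347) and Mt2 (0.76, 0.000673) passed, 1 late against early test of Mtf1, Slc30a1, Slc39a14 and Nr3c1 passed (0.0427), and LSEC Slc39a14 (0.09), T cell Nr3c1 (-0.01) and Slc30a1 (-0.01) changed sign. Without the protocol term, hepatocyte Mt2 did not pass (4.89, 0.686) and hepatocyte Nr3c1 was -0.01. With protocol A alone, hepatocyte Mt1 passed (3.27, 0.0362), and LSEC Mt1 (1.48), LSEC Slc39a14 (0.18), DC Mtf1 (0.53), DC Slc39a14 (-1.19) and T cell Nr3c1 (-0.12) changed sign. With protocol B alone, Mt1 was -0.32 in macrophages, -0.03 in DC and -0.81 in T cells, Mt2 was -0.48 in T cells and -0.21 in late hepatocytes, LSEC Mtf1 was -0.28, DC Nr3c1 0.16 and macrophage Slc30a1 1.63 (0.0263).

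With at least 50 cells, hepatocyte Mt2 did not pass (4.29, 0.0588), T cell Nr3c1 was -0.10, and for Mt1 BEC minus hepatocytes was 0.40, LSEC minus hepatocytes 0.34 and hepatocytes minus DC 1.47 (0.0852). With at least 3000 UMIs, LSEC Mt1 was 0.21 and Slc39a14 0.14, T cell Mt1 -0.88, Mt2 -0.58 and Slc30a1 -0.08, BEC minus hepatocytes -0.09 for Mt2, hepatocytes minus macrophages 1.48 (0.0335) for Mt1, and the share of hepatocytes minus T cells -0.31 (0.0451). There the diet difference from T cells was 0.19 and 0.31 for Mt1 and Mt2 of LSEC, 0.23 for Mt1 of macrophages and 0.51 and 0.36 for DC, and the STOP ratio of T cell Mt1 was 2.10. With doublets removed, LSEC Slc39a14 was 0.04, macrophage Slc30a1 0.01, T cell Slc30a1 -0.05, the share of BEC minus T cells 0.06, and the STOP ratios were 1.30 for DC Mt2, 2.14 for T cell Mt1 and 2.23 for T cell Mt2.

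With 10% free RNA subtracted, T cell Mt1 was -6.38 and Mt2 -1.24, late T cell Mt1 -0.09 and Mt2 -0.12, Mt1 of BEC minus hepatocytes 0.08 and of LSEC minus hepatocytes 0.09. Subtraction was cut off at 0, so that values involving T cells rest on counts at or near 0. The share against T cells was -2.17 in BEC, -1.39 in LSEC (0.00817) and -2.02 in hepatocytes (0.00266). The diet differences were 0.25 for Mt2 of LSEC minus DC, 0.50, -1.79, 0.66 and 0.54 for Mt1 of LSEC, hepatocytes, macrophages and DC minus T cells, -1.25 for Mt2 of hepatocytes minus T cells and 0.11 for Mt1 of macrophages minus DC. STOP ratios were 0.345 for BEC Mt1, 0.839 and 1.35 for DC Mt1 and Mt2 and 3.81 for T cell Mt2.

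With types from the markers of each cell, LSEC Mt1 was 0.09 and Slc39a14 0.73, hepatocyte Mt2 5.48 (0.470), macrophage Slc30a1 0.02 and T cell Slc30a1 -0.05. Mt2 of BEC minus LSEC was 0.07, Mt1 of BEC and LSEC minus hepatocytes 0.31 and 0.37, Mt1 of hepatocytes minus DC 1.19 (0.269), and Mt2 of hepatocytes minus macrophages 1.45 (0.176) and minus DC 2.03 (0.0893). Mt2 of macrophages minus DC was 0.54 (0.0315), of macrophages minus T cells 2.54 (0.000732) and of DC minus T cells 2.00 (0.00133). Shares were 0.34 for BEC minus T cells, 0.06 for hepatocytes minus T cells, 0.32 for LSEC minus hepatocytes (0.0537) and -0.25 for macrophages minus DC (0.148). Protocol differences were 0.15 for LSEC Mt2 and -0.25 for T cell Mt1, and the diet difference of LSEC minus DC was 0.12 for Mt2. STOP ratios were 0.340 for BEC Mt1, 0.869 and 0.707 for LSEC, 1.01 and 0.688 for macrophages, 0.953 for DC Mt2 and 1.12 and 1.41 for T cells.

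Leaving out 1 library at a time gave Mt1 ranges of -0.98 to 1.49 in LSEC, 3.21 to 3.68 in hepatocytes, -0.24 to 1.13 in macrophages, -0.13 to 1.04 in DC and -0.81 to 2.44 in T cells, and Mt2 ranges of 0.20 to 1.56 in LSEC, 0.16 to 1.49 in DC, 1.31 to 2.67 in macrophages and -0.48 to 3.25 in T cells. Hepatocyte Mt1 passed without D3 A (0.0359), D9 B (0.0496) or D25 B (0.0283), and macrophage Mt2 without D3 B (0.0427). For other genes the ranges were -0.27 to 0.29 for LSEC Mtf1, -0.31 to 0.20 for LSEC Slc39a14, -0.79 to 1.70 for macrophage Slc30a1, -0.89 to 0.62, -0.49 to 0.06 and -1.11 to 1.75 for Mtf1, Nr3c1 and Slc39a14 of DC, and -0.64 to 0.10 and -0.04 to 0.22 for Mtf1 and Nr3c1 of T cells.

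The number of genes called for DDC against D0 ran from 29 (without D25 A) to 1250 (DESeq2) in BEC, 3 to 233 in LSEC, 0 to 704 in hepatocytes, 89 to 1123 in macrophages, 13 to 2282 in DC and 0 to 2078 in T cells. For late against early it ran up to 167, 456, 61, 764, 476 and 238 with no filter on low counts, in the same order.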

Other observations

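Mesenchymal cells, which include stellate cells, had high metallothionein levels in D0 A, the only D0 library with enough of them. Mt1 was 2685 CPM in D0 A (370 cells) and 916 to 3969 CPM (median 2561) in 7 DDC libraries, so that D0 A lay inside the range under DDC. Mt2 was 640 CPM in D0 A and 375 to 1102 CPM under DDC, and it exceeded the near-empty barcodes of the same library in 9 of 9 libraries. Mt1 exceeded them in 7 of 9, with D3 A and D25 A below and a lowest ratio of 0.741. Late libraries had 2010 to 3969 CPM of Mt1 and early ones 916 to 2561 CPM.

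Neutrophils and NK cells had low levels. Neutrophil Mt1 was 67.2 and 121 CPM at D0, 49.9 to 202 CPM in 3 early and 238 to 417 CPM in 6 late libraries. Early and late libraries thus did not overlap, and the share of all genes that separate this way was not counted. NK cells had 105 and 111 CPM at D0 and a median of 38.4 CPM over 8 DDC libraries, with 566 CPM in D9 A. Both types were below the near-empty barcodes in every library for Mt1. Monocytes had 136 and 225 CPM of Mt1 at D0 and 224 to 1361 CPM under DDC, above the near-empty barcodes in 1 of 12 libraries.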
